A study of Mus musculus with 59 samples.

Results

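Peg3, Usp29, Zim1, Peg10, Sgce, Mest, Plagl1, Grb10, Slc38a4 and Impact are imprinted genes, chosen by name. A gene's level was read from its brightest probe set on the array, a group of short probes for 1 transcript, and each clone was placed against the range of the embryonic stem cells (ESC). Of the 10 genes, 8 had a probe set of their own among the 11807 genes measured. Mest was represented only by a probe set that the annotation gives to Copg2 and Mest together, so that its signal cannot be assigned to Mest alone. Peg10 was not listed in the annotation and is unnamed here.

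Mouse ESC and induced pluripotent stem cells (iPSC) were profiled, 1 Affymetrix array for each of 59 lines, and the series' title calls them genetically matched. By the series' design text, the iPSC came from tissues of chimeras made with ESC carrying an inducible cassette for Myc, Klf4, Oct4 and Sox2. The labels name the animals chimera 1, chimera 2, mouse 1 and mouse 2, and whether both mice were chimeric too is not said there. The 4 ESC clones are targeted KH2 ESC. Among the 48 iPSC clones, 6 came from MEFs (embryonic fibroblasts) of chimera 1. From mouse 1 there were 13 clones, of which 4 came from HSCs (haematopoietic stem cells), 4 from GMPs (granulocyte-macrophage progenitors), 3 from granulocytes and 2 from PFs. From mouse 2 there were 14 clones, of which 4 came from HSCs, 4 from GMPs, 3 from granulocytes and 3 from PFs. From chimera 2 there were 15 clones, of which 3 came from HSCs, 3 from GMPs, 3 from granulocytes and 6 from TTFs. PFs and TTFs are counted here as fibroblasts. 1 Adeno-iPSC clone, Adeno-2, came from fetal liver. The 6 NT-ESC subclones came from cloned blastocysts, that is, from nuclear transfer. NT-4, NT-5 and NT-6 carry the nucleus of Adeno-2, NT-7 that of iPSC-7, and NT-8 and NT-9 that of iPSC-15. All lines grew with LIF and 15% FBS on irradiated MEF feeders, which were reduced by preplating for 45 minutes, and the sources used here give neither genotype nor age of the animals. Clones of 1 animal share that animal, so the p-values below measure the spread between clones.

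An imprinted gene is transcribed mainly from the maternal or the paternal copy, because a control region near it is methylated on 1 of them. ZFP57 binds methylated copies of a short motif in such regions and recruits TRIM28, which keeps the methylation in place in the early embryo and in ESC. In pluripotent cells, imprints can be lost or gained during culture, and array intensities add up both copies, so that a changed level does not show which copy it came from.

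Positions are those of assembly GRCm38.p6. Peg3 (chr7:6703892-6730462), a paternally expressed zinc finger gene, and Usp29 (chr7:6730559-6967220), which encodes a deubiquitinase, start back to back, and Zim1 (chr7:6674444-6696540), a maternally expressed zinc finger gene, lies beyond the 3' end of Peg3. Sgce (chr6:4674350-4747204), which encodes epsilon-sarcoglycan, starts beside Peg10 (chr6:4747306-4760517), a retrotransposon-derived gene needed in the placenta. Mest (chr6:30733506-30748466), which encodes a hydrolase-like protein, overlaps Copg2 (chr6:30747554-30896815), a subunit gene of the COPI coat, at its 3' end. Plagl1 (chr10:13090832-13131694) encodes a zinc finger regulator of growth. Grb10 (chr11:11930499-12037428) encodes an adaptor that dampens insulin and IGF receptor signalling. Slc38a4 (chr15:96994816-97055956) encodes an amino acid transporter, and Impact an inhibitor of the kinase GCN2.

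Sequences before gene starts are shown for the domains with the widest differences between animals (Mest, Slc38a4 and Peg3) and between blood and fibroblast origin (Plagl1), and the letters show whether the ZFP57 core motif TGCCGC (or GCGGCA on the other strand) is present. They were taken from RefSeq on GRCm38.p6, written 5' to 3' with the motif in capitals. The first is the 96 bases between Peg3 and Usp29 (chr7:6730463-6730558, + strand), the second the 250 bases before a start of Mest inside the gene's span (chr6:30737800-30738049, + strand) the third the 250 bases before Plagl1 (chr10:13090582-13090831, + strand) and the last the 250 bases before Slc38a4 (chr15:97055957-97056206, - strand).
Peg3-Usp29: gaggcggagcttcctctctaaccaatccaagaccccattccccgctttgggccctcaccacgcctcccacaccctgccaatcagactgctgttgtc
Mest: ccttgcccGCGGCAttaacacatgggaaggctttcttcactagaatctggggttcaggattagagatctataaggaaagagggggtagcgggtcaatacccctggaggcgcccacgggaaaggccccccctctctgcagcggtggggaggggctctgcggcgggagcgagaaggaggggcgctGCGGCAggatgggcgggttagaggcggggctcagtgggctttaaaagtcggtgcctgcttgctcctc
Plagl1: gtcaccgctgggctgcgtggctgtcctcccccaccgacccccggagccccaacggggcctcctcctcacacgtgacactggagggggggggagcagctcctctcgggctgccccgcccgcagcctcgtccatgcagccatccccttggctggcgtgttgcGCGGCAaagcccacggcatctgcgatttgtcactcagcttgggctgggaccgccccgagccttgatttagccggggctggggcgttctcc
Slc38a4: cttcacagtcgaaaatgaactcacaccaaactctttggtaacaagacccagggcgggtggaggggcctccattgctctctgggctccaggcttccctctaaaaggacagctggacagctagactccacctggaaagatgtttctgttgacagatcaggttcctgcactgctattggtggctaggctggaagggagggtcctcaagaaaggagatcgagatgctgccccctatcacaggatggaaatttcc
The motif occurred in 5 of the 12 windows listed for 7 of these genes, and in 11.6% of 32851 windows of 300 bases over all genes. The 5 belong to Mest, Zim1, Plagl1 and Grb10, but not every window of these genes held it. The Mest window from 30733256, at the start of the gene's span, and the Grb10 window from 12027922 had none. The Mest windows from 30737800 and from 30737803 overlap almost wholly and share their copies of the motif. The motif holds a CG, and the median count of CG was 15 in these windows against 7 over all genes. The shares do not allow for either. A match describes the letters and is not a binding site, and the windows of Peg3, Usp29 and Slc38a4 hold none of these letters.

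Values are log2 intensities with each array's mean near 0, and a difference of 1 is a doubling of intensity. Probe sets bind differently, so levels are compared between lines and not between genes. All lines carried pluripotency transcripts: the mean of 11 such genes lay between 3.46 and 4.42 in the ESC and iPSC and between 3.75 and 4.27 in the NT-ESC. The arrays of NT-7, NT-8 and NT-9 stood apart from the others, with an SD over probe sets of 2.35 to 2.47 against 2.54 to 2.64 elsewhere. Their mean of 8 primitive endoderm genes was -0.19 to 0.82 against -2.09 to -1.57 in the 48 iPSC. Their mean of 10 trophoblast genes was 1.15, 1.22 and 1.11 against -0.16 to 0.57 in the ESC and 48 iPSC. The tests of NT-ESC below are given with and without them.

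The signal of the probe set for Copg2 and Mest together separated the animals. It was -0.29, 0.30, -0.04 and 0.02 in the 4 ESC and -0.14 to 0.91 in the MEF-derived clones of chimera 1, with a median of 0.13. In the 15 clones of chimera 2 it was -0.35 to 1.26, with a median of 0.34, but 2.46 to 3.23 in the 13 clones of mouse 1 (median 3.05) and 2.70 to 3.14 in the 14 of mouse 2 (median 2.87). The clones of both mice lay far above all ESC and all clones of both chimeras, with no overlap, whichever cell they came from. The 27 clones of both mice were thus the only ones among the 48 iPSC more than 1 log2 unit above the highest ESC, whereas such readings made up 0.179% of those of all genes in the 48 iPSC.

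**Figure D1:**
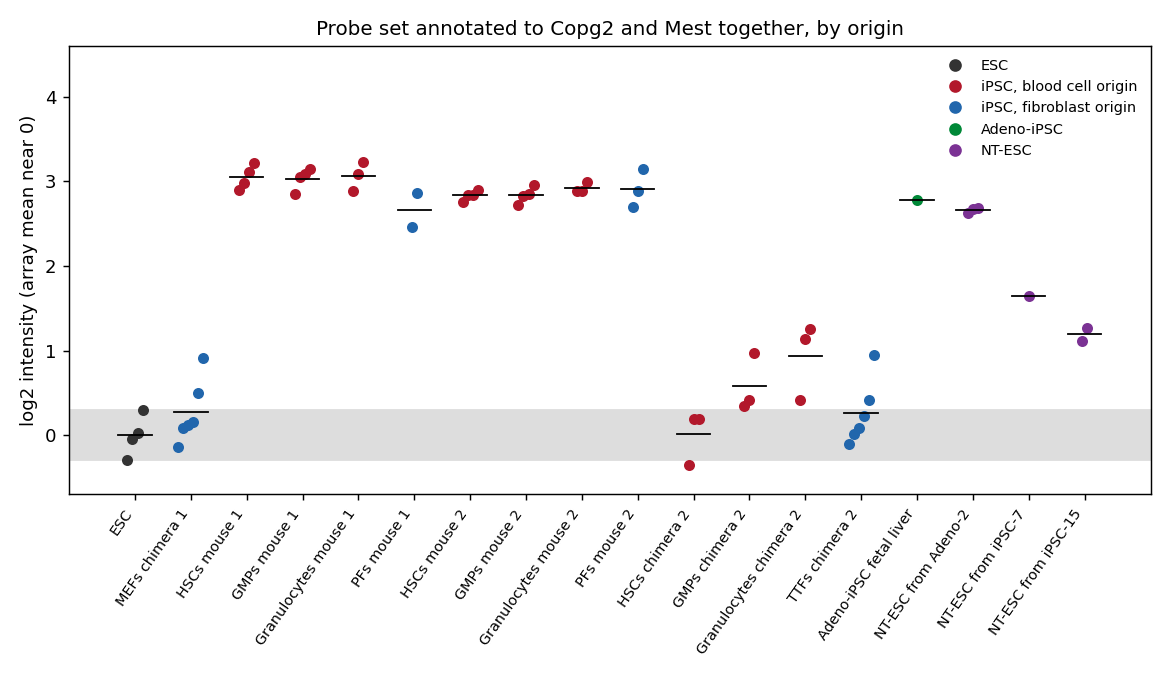
Log2 intensity (y axis) of the probe set annotated to Copg2 and Mest together in each of 59 lines, by origin (x axis). Each point is 1 line, each black line a group mean, and the grey band the range of the 4 ESC; the clones of mouse 1 and mouse 2 lie between 2.46 and 3.23, and those of chimera 1 and chimera 2 between -0.35 and 1.26.

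Over 22626 probe sets, the test of any difference between mouse 1, mouse 2 and chimera 2 gave this probe set an adjusted p of 5.26e-23, the 6th smallest (limma moderated F test, Benjamini-Hochberg adjustment, with the cell type as a term). In that test 42.5% of probe sets passed 0.05. The difference was 2.54 (SE 0.11) between mouse 1 and chimera 2 and 2.43 (SE 0.10) between mouse 2 and chimera 2, and only 5 probe sets, itself included, differed as much in each of these contrasts. The mice did not pass the test against each other, at 0.11 (SE 0.11, adjusted p = 0.561 by limma). Copg2's own probe set, which reads Copg2 alone, differed by 0.18 among the animals (adjusted p = 0.0146 by limma over genes) and lay at 0.84 to 1.47 in mouse 1, 0.88 to 1.68 in mouse 2 and 0.69 to 1.39 in chimera 2, so that its ranges overlapped.

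Among mouse 1, mouse 2, chimera 2 and ESC, Peg3 was highest in the clones of mouse 1, lower in mouse 2 and lowest in chimera 2 and ESC. It read 0.41, 0.82, 0.82 and 0.37 in the ESC and 0.67 to 1.02 in the MEF-derived clones (median 0.89). In mouse 1 it lay between 1.20 and 2.16 (median 1.53), in mouse 2 between 0.28 and 1.58 (median 1.22) and in chimera 2 between 0.39 and 1.19 (median 0.64). All 13 clones of mouse 1 exceeded all ESC, whereas those of mouse 2 and chimera 2 overlapped with them. Usp29, which starts 96 bases from Peg3, had a low signal, at the 26.4th percentile of probe sets, and a smaller spread over animals: -2.23 to -1.38 in mouse 1, -2.32 to -1.75 in mouse 2, -2.67 to -1.79 in chimera 2 and -2.38 to -2.06 in ESC, which all overlapped. Its other probe set did not follow it (r = -0.08 over 52 arrays, a description) and put mouse 1 lowest, at -3.21 ± 0.13 (SD, n = 13), against -3.18 ± 0.18 (n = 15) in chimera 2, with mouse 2 at -3.26 to -2.84. Zim1 had a low signal too, at the 8.0th percentile of probe sets, and read -3.86 to -3.19 in all 48 iPSC and -3.72 to -3.48 in ESC.

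**Figure D2:**
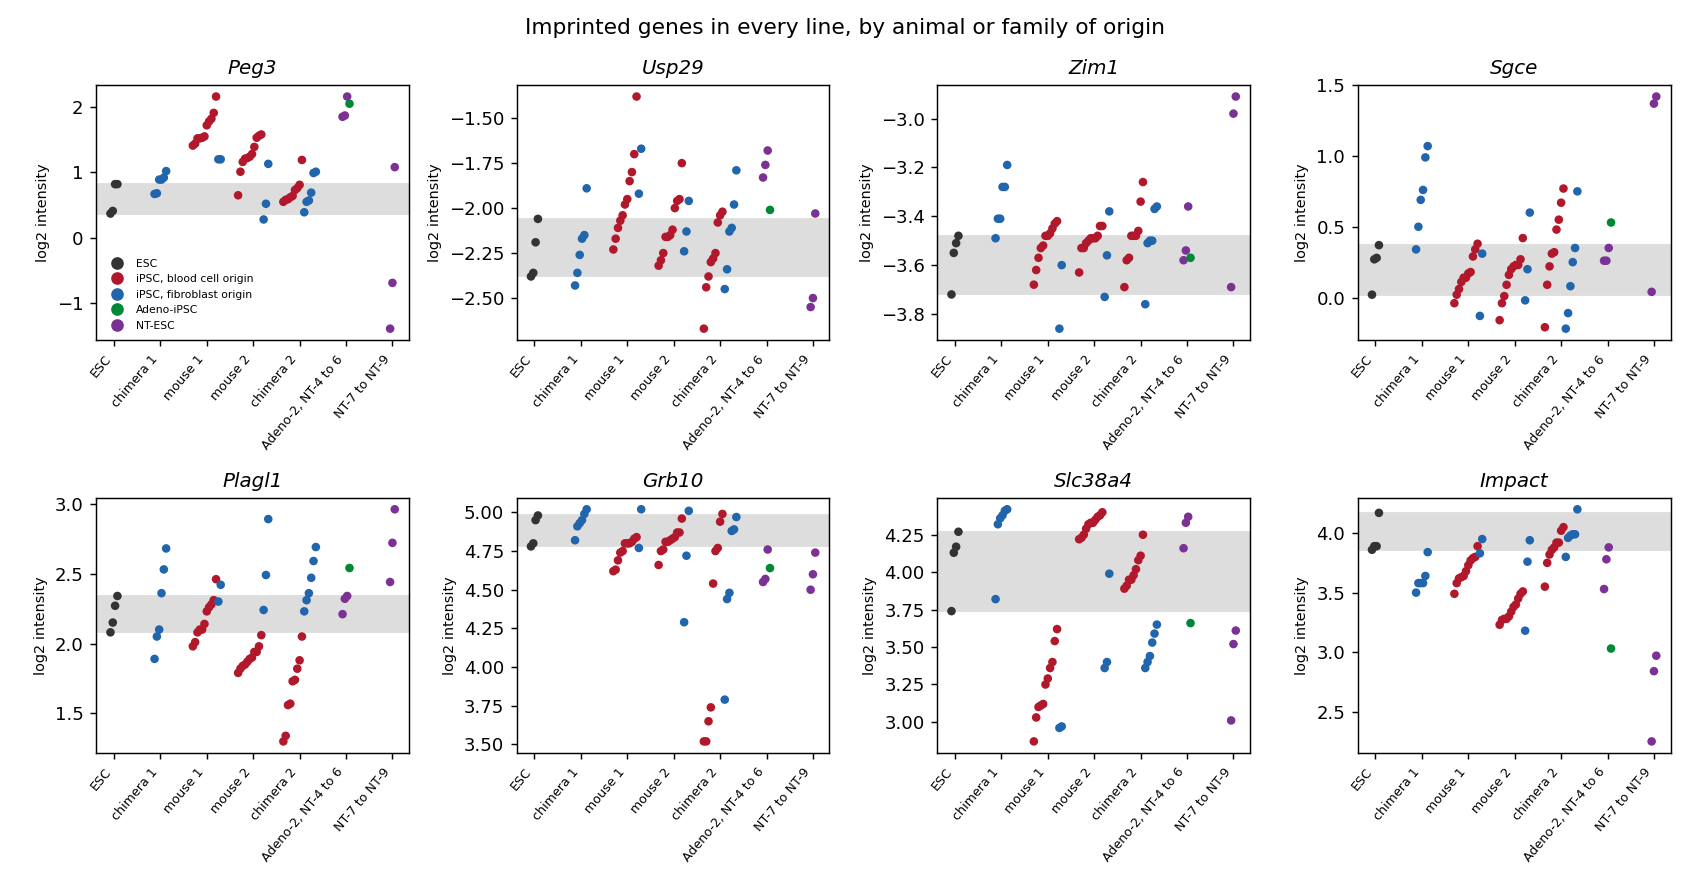
Log2 intensity (y axes, 1 panel for each gene, scales differ) of the 8 imprinted genes with a probe set of their own in all 59 lines, by animal or family of origin (x axis). Points are single lines, coloured by kind, and the grey bands show the range of the 4 ESC; Peg3 of mouse 1 (1.20 to 2.16) and Slc38a4 of mouse 1 (2.87 to 3.62) lie wholly outside the bands.

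Slc38a4 was low in mouse 1. It read 3.74, 4.13, 4.17 and 4.27 in ESC, 2.87 to 3.62 in mouse 1 (median 3.12), 3.36 to 4.40 in mouse 2 (median 4.30) and 3.36 to 4.25 in chimera 2 (median 3.91). All 13 clones of mouse 1 lay below the lowest ESC, and none of them by as much as 1 log2 unit, the largest distance being 0.87 in iPSC-12. The lowest ESC reading, that of ESC-1, sets this distance: without ESC-1, 7 iPSC readings of Slc38a4 were more than 1 log2 unit below the range. Its other probe set showed the same order, with means of 1.08 ± 0.32 (SD, n = 13) in mouse 1, 2.31 ± 0.24 (n = 14) in mouse 2 and 1.92 ± 0.22 (n = 15) in chimera 2.

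Impact, on chromosome 18 (chr18:12954690-12992950), was low in mouse 2 and close to ESC in chimera 2. The ESC read 4.17, 3.86, 3.89 and 3.89, chimera 2 read 3.55 to 4.20 (median 3.92), mouse 1 read 3.49 to 3.95 (median 3.73) and mouse 2 read 3.18 to 3.94 (median 3.36). Of the 48 iPSC, 35 were below the lowest ESC, and none by more than 0.68.

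Among mouse 1, mouse 2 and chimera 2, 6 of the 8 genes passed the test of any difference (limma moderated F test over 11807 genes), against 44.9% of all genes. The largest difference between 2 animals was 0.99 for Slc38a4 (adjusted p = 9.17e-15 by limma), 0.82 for Peg3 (adjusted p = 6.9e-08 by limma), 0.46 for Impact (adjusted p = 4.12e-08 by limma), 0.43 for Grb10 (adjusted p = 0.00708 by limma), 0.38 for Plagl1 (adjusted p = 0.000363 by limma) and 0.33 for Usp29 (adjusted p = 0.0011 by limma). Zim1 and Sgce did not pass, at 0.08 and 0.14. With 1 mean for each animal and cell type in place of single clones, Grb10 and Plagl1 stayed at 0.44 and 0.36 but no longer passed (adjusted p = 0.123 and 0.0621 by limma). With the mean of the fibroblast and feeder markers as a covariate, Plagl1 was at 0.27 and did not pass either (adjusted p = 0.0651 by limma), where 38.2% of genes did. These markers moved with the animals too: 17 of 20 passed the test between animals, and their mean was 1.09 to 2.12 in the blood-derived clones of mouse 1, 0.69 to 1.14 in those of mouse 2 and 0.80 to 1.06 in those of chimera 2. With the covariate, Peg3 differed by 0.90 (adjusted p = 1.9e-06 by limma), Slc38a4 by 0.91 (adjusted p = 3.15e-12 by limma) and the probe set for Copg2 and Mest together by 2.36 (adjusted p = 1.24e-20 by limma).

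Between mouse 1 and chimera 2, 5 of the 8 passed, where 34.1% of genes did: Peg3, Usp29, Plagl1 and Grb10 were higher in mouse 1 and Slc38a4 was lower, by 0.73 (SE 0.07). For Usp29 this holds for the brighter probe set only, as given above. In the test of any difference between animals, the other probe sets of Peg3 and Slc38a4 passed, and that of Plagl1 did not (0.12, adjusted p = 0.116 by limma). Of Grb10's dimmer probe sets, 1 passed (0.39, adjusted p = 0.035 by limma) and 1 did not (0.28, adjusted p = 0.0778 by limma). Grb10 in chimera 2 includes the low clones given below, beside others that overlapped with both mice. Between mouse 2 and chimera 2, 4 passed, where 33.1% of genes did: Peg3 was higher in mouse 2 by 0.36 (SE 0.10), Grb10 by 0.43 (SE 0.13) and Slc38a4 by 0.25 (SE 0.07), and Impact fell by 0.46 (SE 0.06). Between mouse 1 and mouse 2, 3 passed, where 17.1% of genes did: Peg3 was higher in mouse 1 by 0.45 (SE 0.10) and Impact by 0.32 (SE 0.06), and Slc38a4 was lower, at -0.99 (SE 0.07), a size that 34 genes reached. These 3 contrasts share animals and are not independent.

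Of 13 measured genes beside these, in or near the same domains, 7 passed the test between animals, against 44.9% of all genes. The widest was Ddc, which lies next to Grb10 and encodes the enzyme that makes dopamine and serotonin from their precursors. It was 0.84 (SE 0.09) higher in mouse 1 and 1.16 (SE 0.09) higher in mouse 2 than in chimera 2. Tfpi2, a protease inhibitor gene near Sgce, was higher by 0.79 (SE 0.18) and 0.90 (SE 0.18) in the same contrasts. Phactr2, near Plagl1, fell by 0.40 (SE 0.08) and by 0.52 (SE 0.08), whereas Plagl1 itself was higher in mouse 1. The median range between animals was 0.18 for these neighbours, 0.40 for the 8 genes and 0.14 for all genes.

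Grb10 was the gene whose clones spread most within a group. Its SD within origin groups, pooled over groups, was 0.28, at the 94.2th percentile of all genes (median 0.15), followed by 0.24 for Peg3 (88.4th) and 0.23 for Sgce (87.4th). Usp29, Plagl1, Slc38a4 and Impact had SDs of 0.20, 0.20, 0.18 and 0.15, and Zim1 of 0.11. The ESC read 4.95, 4.80, 4.78 and 4.98 for Grb10, and the 27 clones of both mice 4.29 to 5.02. In chimera 2, the HSC-derived clones iPSC-35, iPSC-36 and iPSC-37 read 3.65, 3.74 and 3.52, and the GMP-derived iPSC-38, iPSC-39 and iPSC-40 read 4.94, 4.77 and 3.52. These 4 low clones were more than 1 log2 unit below the lowest ESC, by at most 1.26, and the fibroblast-derived iPSC-48 at 3.79 lay just inside this margin. All 3 HSC-derived clones of chimera 2 were low, but only 1 of its 3 GMP-derived clones was as low and none of its granulocyte-derived ones, which read 4.75, 4.99 and 4.54.

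**Figure D3:**
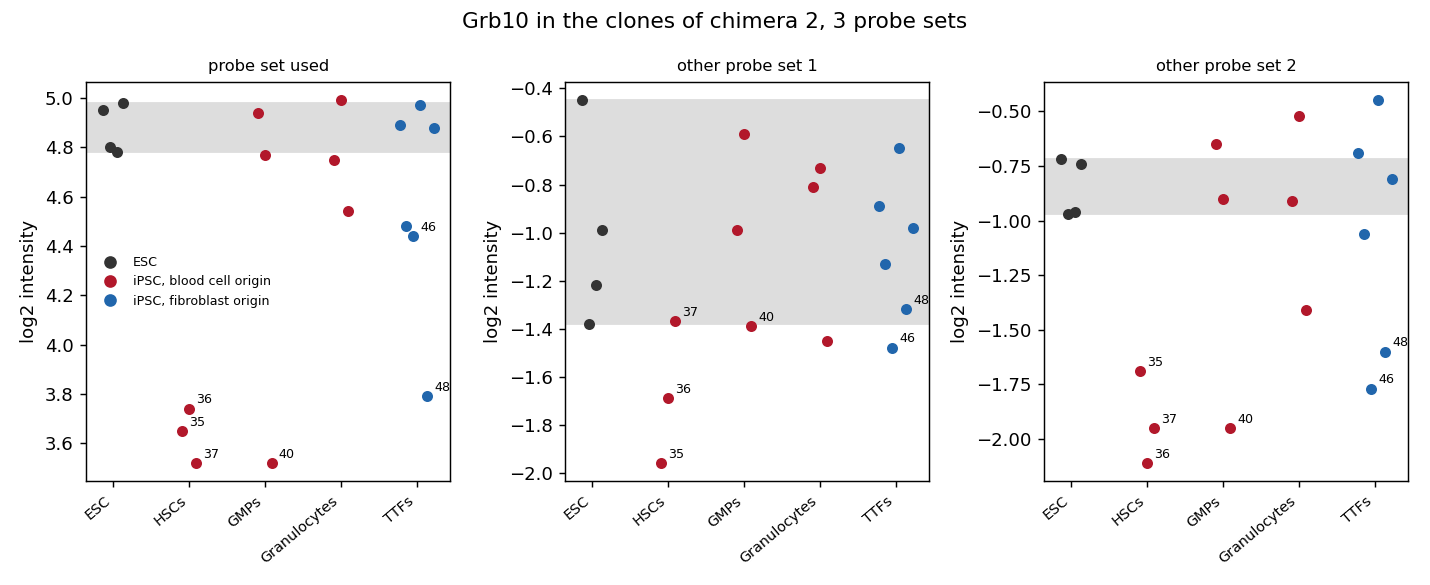
Log2 intensity (y axes, scales differ) of the 3 Grb10 probe sets in the clones of chimera 2 by cell of origin and in ESC (x axes). Points are single clones, the grey bands show the range of the 4 ESC, and the numbered points are the iPSC clones of that number; in the used probe set clones 35, 36, 37 and 40 lie between 3.52 and 3.74, and in other probe set 2 they lie between -2.11 and -1.69.

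The dimmer probe sets of Grb10 followed it in part. In 1 of them, iPSC-35, iPSC-36, iPSC-37 and iPSC-40 read -1.69, -2.11, -1.95 and -1.95 against -0.97 to -0.72 in ESC, and iPSC-46, iPSC-48 and the granulocyte-derived iPSC-43 read -1.77, -1.60 and -1.41. In the other, the same 4 clones read -1.96, -1.69, -1.37 and -1.39 against -1.38 to -0.45, so that iPSC-37 lay within the ESC range and iPSC-40 at its edge. There iPSC-43 read -1.45, below both, and both iPSC-43 and iPSC-46 (4.54 and 4.44 in the brightest probe set) were below the ESC range in all 3. So was a clone of mouse 2, the PF-derived iPSC-32. It read 4.29 in the brightest probe set and -1.19 and -1.54 in the dimmer ones, in the order given here. No reading was more than 1 log2 unit outside in all 3 probe sets. The mean of the fibroblast and feeder markers in iPSC-35, iPSC-36, iPSC-37 and iPSC-40 was 0.90 to 1.06, within the 0.80 to 1.06 of all blood-derived clones of chimera 2. HSC origin differed from fibroblast origin by -0.28 (SE 0.15) for Grb10, which did not pass the test (adjusted p = 0.133 by limma).

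Over the 8 genes and the 48 iPSC there were 384 readings. Of these, 4 were more than 1 log2 unit below the ESC range, where 0.27% of the readings of all genes were, and all 4 were Grb10. Another 2 were more than 1 unit above it, against 0.179% of all readings: Peg3 in iPSC-9 (1.91) and iPSC-17 (2.16). At Peg3's other probe set, iPSC-17 read 1.53 and iPSC-9 read 0.86 against -0.38 to 0.29 in ESC, so only iPSC-17 was as far out in both. With no margin, 31 of 48 iPSC lay above the ESC range for Peg3, 22 for Zim1, 19 for Usp29, 13 for Sgce, 13 for Slc38a4 and 11 for Plagl1, and 35 lay below it for Impact, 24 for Plagl1 and 21 each for Grb10 and Slc38a4. Over the 8 genes, 120 of 384 readings lay below and 115 above, where 21% and 27.2% of the readings of all genes did. The farthest clones of the other genes were iPSC-17 for Usp29 (0.68 above), iPSC-5 for Zim1 (0.29 above), iPSC-4 for Sgce (0.70 above), iPSC-37 for Plagl1 (0.78 below) and iPSC-32 for Impact (0.68 below).

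None of the 8 genes passed the test between ESC and the MEF-derived clones, where 0 of 11807 genes (0%) did (smallest adjusted p = 0.0669 by limma). At an unadjusted p under 0.05 there were 997 genes, among them Sgce, Zim1 and Impact. Sgce read 0.34 to 1.07 in the MEF-derived clones against 0.02 to 0.37 in ESC, a difference of 0.49 (SE 0.14, adjusted p = 0.355 by limma), and only iPSC-6 overlapped with the ESC. When all groups shared 1 estimate of the spread, Sgce passed (adjusted p = 0.0498 by limma), where 1.72% of genes did. Impact read 3.50 to 3.84 against 3.86 to 4.17, with no overlap, a difference of -0.33 (SE 0.09, adjusted p = 0.306 by limma). Zim1 differed by 0.22 (SE 0.08), Peg3 by 0.24 (SE 0.12), Slc38a4 by 0.21 (SE 0.14), and Plagl1, Grb10 and Usp29 by 0.06, 0.06 and 0.04.

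ESC and all 48 iPSC together differed in 583 genes (4.94%), and none of the 8 passed. Peg3 was 1.09 ± 0.45 (SD, n = 48) against 0.61 ± 0.25 (n = 4), and Impact 3.68 ± 0.25 against 3.95 ± 0.14, each with an adjusted p of 0.182 by limma. The probe set for Copg2 and Mest together differed by 1.81 (SE 0.65, adjusted p = 0.0867 by limma over probe sets), and passed without the MEF-derived clones, at 2.03 (adjusted p = 0.0155 by limma). Both fits take clones of 1 animal as independent. With the animal as a random block, over all 48 iPSC, this probe set was at 1.70 and did not pass (adjusted p = 0.311 by limma). With 1 estimate of the spread over all groups and each origin group weighted equally, 3 of the 8 passed, where 22.6% of genes did: Peg3 at 0.50 (adjusted p = 0.0132 by limma), Slc38a4 at -0.30 (adjusted p = 0.0218 by limma) and Impact at -0.27 (adjusted p = 0.00721 by limma). That fit takes clones of 1 animal as independent. With the animal as a random block they were at 0.47, -0.23 and -0.28 and did not pass (adjusted p = 0.694, 0.921 and 0.669 by limma), and no gene did. The ESC serve in both comparisons and in that with NT-ESC, so these results share their controls.

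Cells of blood origin were set against fibroblasts within the fit of 42 clones from mouse 1, mouse 2 and chimera 2. Of the 8 genes, 4 passed, where 49.7% of all genes did, 28.1% as higher and 21.6% as lower in blood-derived clones. Slc38a4 was higher in blood-derived clones, by 0.53 (SE 0.06, adjusted p = 4.81e-09 by limma), and Peg3 by 0.31 (SE 0.09, adjusted p = 0.00547 by limma). Plagl1 fell by 0.60 (SE 0.07, adjusted p = 5.62e-09 by limma) and Impact by 0.18 (SE 0.05, adjusted p = 0.00441 by limma). The other probe sets of Slc38a4, Peg3 and Plagl1 passed in the same direction, at 0.28, 0.25 and -0.23. Usp29, Zim1, Sgce and Grb10 differed by -0.09, 0.07, 0.07 and -0.13 and did not pass.

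Fibroblast and feeder markers moved with this contrast. Of 20 such genes, 18 were lower and 1 higher in blood-derived clones, and their mean level was 0.69 to 2.12 in the 31 blood-derived and 1.45 to 2.48 in the 11 fibroblast-derived clones. In bulk RNA, fewer cells of a type and less RNA per cell cannot be told apart, and a log2 intensity has no zero from which the absence of a marker could be read. With that mean as a covariate, where 14.8% of genes passed, the 4 differences were 0.33 for Slc38a4 (adjusted p = 0.0419 by limma), -0.39 for Plagl1 (adjusted p = 0.0362 by limma), 0.15 for Peg3 (adjusted p = 0.588 by limma) and -0.17 for Impact (adjusted p = 0.263 by limma). The probe set for Copg2 and Mest together, at 0.19 without the covariate (adjusted p = 0.111 by limma), passed with it at 0.55 (adjusted p = 0.0291 by limma). The part of these cells in the differences was not tested beyond this.

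Animals were not alike in this contrast. The fibroblasts were PFs in both mice and TTFs in chimera 2. A difference of chimera 2 from the mice in this contrast therefore cannot be told apart from that of TTFs from PFs. The test between animals above also counts PFs and TTFs as 1 class. Plagl1 read 1.79 to 2.06 in the blood-derived clones of mouse 2 and 2.24, 2.49 and 2.89 in its PF-derived clones, and 1.30 to 2.05 in the blood-derived clones of chimera 2 against 2.23 to 2.69 in its TTF-derived clones, without overlap. In mouse 1 it read 1.98 to 2.46 in blood-derived and 2.42 and 2.30 in PF-derived clones, which overlapped. At Plagl1's other probe set the clones of mouse 2 and chimera 2 overlapped too. There blood-derived clones of mouse 2 read -2.16 to -1.90 against -1.94, -1.88 and -1.41 in its PF-derived clones. In chimera 2 they read -2.30 to -1.92 against -1.95 to -1.66 in the TTF-derived clones. At the brighter probe set of Plagl1, the blood minus fibroblast difference was -0.18 (SE 0.09) in mouse 1, -0.64 (SE 0.10) in mouse 2 and -0.78 (SE 0.11) in chimera 2. This difference varied between animals by 0.60 (adjusted p = 0.0197 by limma interaction F test). Plagl1 was the only one of the 8 that passed this test, where 20.7% of all genes and all 20 fibroblast and feeder markers did, and with the feeder covariate it was at 0.57 and did not (adjusted p = 0.0678 by limma).

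**Figure D4:**
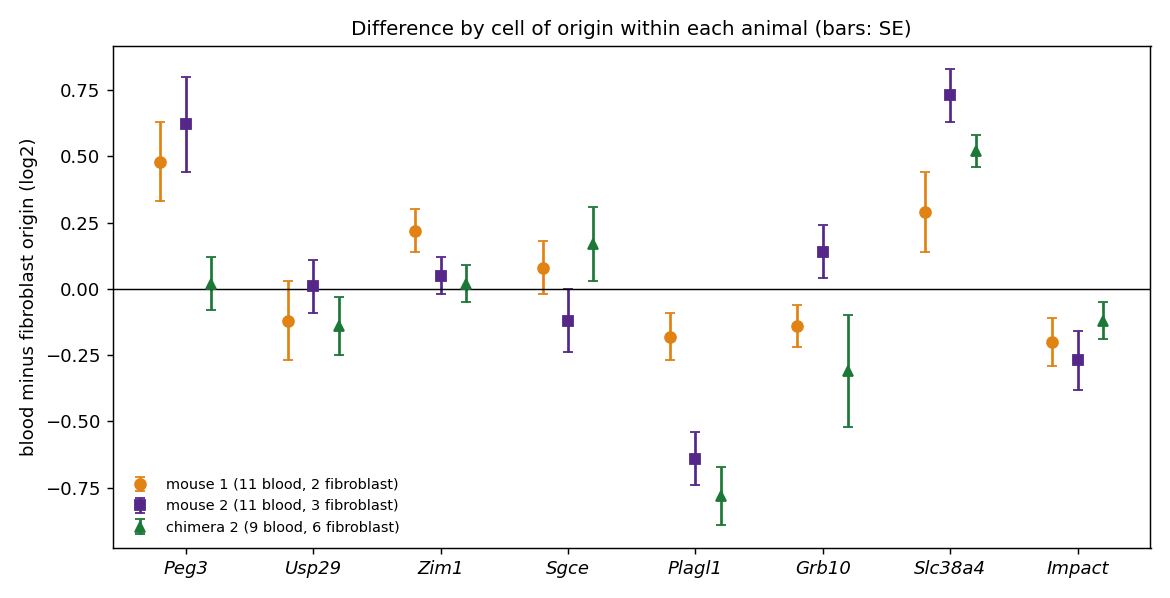
Blood minus fibroblast origin (y axis, log2) for the 8 genes (x axis) within mouse 1, mouse 2 and chimera 2, with bars of 1 SE. Plagl1 is at -0.18, -0.64 and -0.78 and Slc38a4 at 0.29, 0.73 and 0.52 in these animals, while Peg3 is at 0.48, 0.62 and 0.02.

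Within mouse 1, where 12.5% of genes passed, none of the 8 did, with only 2 fibroblast-derived clones. Within mouse 2, where 36.5% passed, Peg3, Plagl1 and Slc38a4 did, and within chimera 2, where 32.1% passed, Plagl1 and Slc38a4 did. Slc38a4 read 4.22 to 4.40 in the blood-derived clones of mouse 2 against 3.99, 3.40 and 3.36 in its PF-derived clones, and 3.89 to 4.25 against 3.36 to 3.65 in chimera 2, without overlap. At Slc38a4's other probe set they overlapped. There blood-derived clones of mouse 2 read 2.21 to 2.48 against 2.57, 1.90 and 1.70 in its PF-derived clones. In chimera 2 they read 1.80 to 2.31 against 1.58 to 2.23 in the TTF-derived clones. Peg3 differed by 0.48 (SE 0.15) in mouse 1, 0.62 (SE 0.18) in mouse 2 and 0.02 (SE 0.10) in chimera 2, and its overall difference did not pass without mouse 1 (adjusted p = 0.0598 by limma) or without mouse 2 (adjusted p = 0.17 by limma). Whether Peg3's difference varies between animals missed the threshold (0.60, adjusted p = 0.0588 by limma). It passed without genes under the 40th percentile (adjusted p = 0.0439 by limma) and with the mean of probe sets (0.74, adjusted p = 0.00798 by limma). Over all 4 cell types, 4 of the 8 passed the test of any difference, where 38% of genes did: Plagl1 (0.67), Slc38a4 (0.58), Peg3 (0.42) and Impact (0.22). HSC, GMP and granulocyte origin each differed from fibroblasts for Plagl1, by -0.67, -0.58 and -0.55, and for Slc38a4, by 0.51, 0.51 and 0.58, and between granulocyte and HSC origin no gene passed. Peg3 and Impact did not pass the test over cell types without mouse 1, at 0.39 and 0.26 (adjusted p = 0.12 and 0.0685 by limma), or without mouse 2, at 0.29 and 0.18 (adjusted p = 0.183 and 0.15 by limma). With the feeder covariate, where only 699 of 11807 genes passed, none of the 4 did: Plagl1 was at 0.47 (adjusted p = 0.0815 by limma), Slc38a4 at 0.36, Peg3 at 0.24 and Impact at 0.21.

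Factors that keep or set imprints were measured for 14 of 20 listed genes, 7 of which were higher and 3 lower in blood-derived clones, against the 28.1% and 21.6% of all genes. The largest difference was in Ehmt2, a histone H3 lysine 9 methyltransferase, at 0.47 (SE 0.06), followed by the zinc finger gene Zfp445, which binds imprint control regions, at -0.36 (SE 0.05), by Dnmt3l, a cofactor of de novo DNA methylation, at 0.35 (SE 0.08), and by Dppa3, which protects maternal methylation in the zygote, at -0.29 (SE 0.09). Trim28 differed by 0.02 (SE 0.03) and did not pass. Among 25 other imprinted genes, 6 were higher and 11 lower, led by Mcts2 (-2.36, SE 0.21), Rian (-1.37, SE 0.27), Meg3 (-1.35, SE 0.25) and Magel2 (-0.87, SE 0.11). The medians were 0.08 for the factors, -0.10 for the other imprinted genes and 0.00 for all genes. Another list held genes of the growth network described around Plagl1, with Peg3 and Grb10, and insulin and IGF signalling partners of Grb10. Of its 11 measured genes, 1 was higher, Peg3 itself, and 4 were lower, where 49.7% of all genes passed. The lower ones included the extracellular matrix gene Dcn, also among the fibroblast markers, at -1.63 (SE 0.15), Dlk1 at -0.63 (SE 0.11) and Irs1 at -0.47 (SE 0.12).

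NT-ESC fell into separate families. In NT-4, NT-5 and NT-6, Peg3 read 2.16, 1.87 and 1.85 and in their donor Adeno-2 it read 2.05, all more than 1 log2 unit above the ESC. At Peg3's other probe set they read 1.58, 1.18 and 1.24, and Adeno-2 1.16. All lay above the highest ESC there, at 0.29, but only NT-4 by more than 1 log2 unit. The probe set for Copg2 and Mest together read 2.67, 2.63 and 2.69 in these subclones and 2.78 in Adeno-2, near the 2.46 to 3.23 of the clones of both mice. Adeno-2 and its subclones were alike in Peg3 and in this probe set. Slc38a4's brighter probe set rose from 3.66 in Adeno-2 to 4.37, 4.33 and 4.16, and Impact from 3.03 to 3.78, 3.53 and 3.88. Slc38a4's other probe set showed no such rise, at 2.35 in Adeno-2 and 2.20, 2.53 and 2.41 in the subclones. Adeno-2 had a mean of fibroblast and feeder markers of 1.72 and its subclones of 0.31 to 0.37. This level moved with Impact and with Slc38a4's brighter probe set, and its part was not tested. In the fit of this family alone, chosen after seeing the data, 17.3% of genes passed. Slc38a4 differed there by 0.62 at its brighter probe set (adjusted p = 0.0224 by limma) and Impact by 0.70 (adjusted p = 0.0299 by limma). The donor is a single array there, assumed to vary like the subclones.

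NT-7 read -1.39 for Peg3 and its donor iPSC-7 read 1.72, and NT-8 and NT-9 read -0.69 and 1.08 where iPSC-15 read 1.53. At Peg3's other probe set NT-7, NT-8 and NT-9 read -2.84, -2.10 and -2.17, so that NT-9 was low only there. The probe set for Copg2 and Mest together fell from 3.22 in iPSC-7 to 1.65 in NT-7 and from 3.23 in iPSC-15 to 1.27 and 1.11 in NT-8 and NT-9. Impact fell from 3.89 to 2.25 in NT-7 and from 3.77 to 2.97 and 2.84 in NT-8 and NT-9. Sgce rose in NT-8 and NT-9, to 1.42 and 1.37 from 0.14, and not in NT-7, at 0.04 from 0.34. These are the 3 arrays that stood apart, with the raised primitive endoderm and trophoblast genes given above, and the part of either in these readings was not tested.

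**Figure D5:**
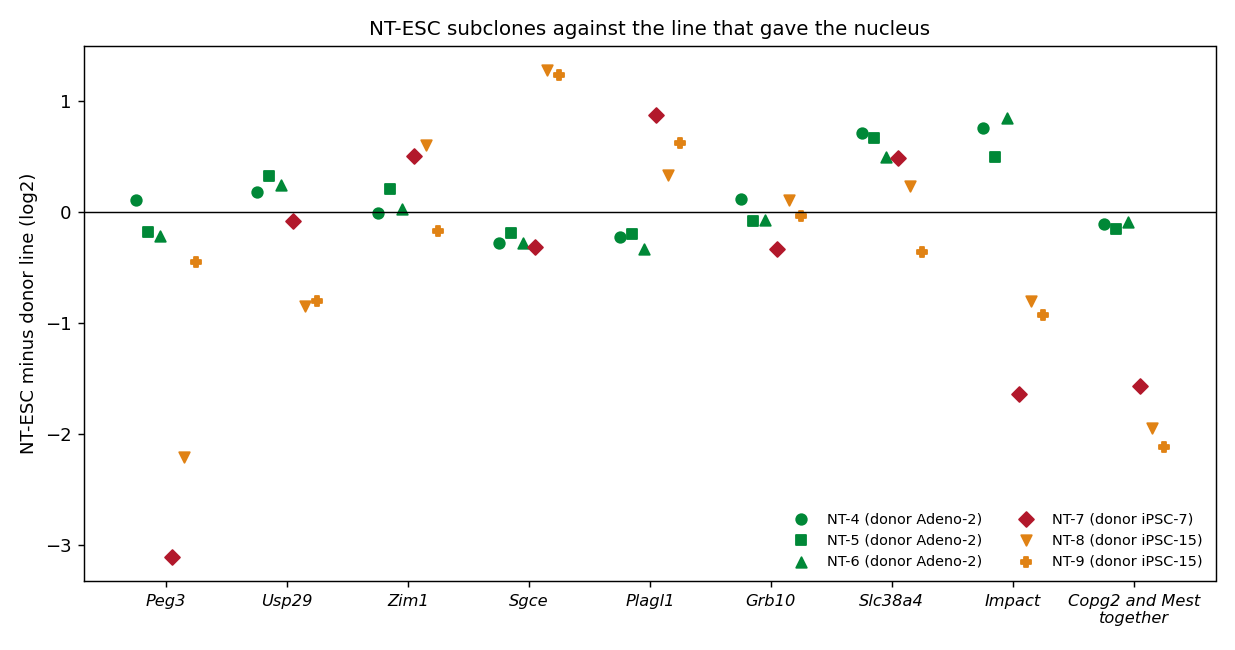
NT-ESC minus the line that gave the nucleus (y axis, log2) for the 8 genes and for the probe set annotated to Copg2 and Mest together (x axis), 1 point for each subclone. NT-4, NT-5 and NT-6 lie within 0.21 of Adeno-2 for Peg3, whereas NT-7 and NT-8 lie 3.11 and 2.21 below their donors.

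None of the 8 genes passed the test of NT-ESC against donor with the donor line as a block, where 0.0593% of genes did. Peg3 differed by -1.31 (SE 0.54, adjusted p = 0.112 by limma) and the probe set for Copg2 and Mest together by -1.16 (SE 0.33, adjusted p = 0.0674 by limma). At an unadjusted p under 0.05 there were 4824 genes, Peg3 among them. Leaving out NT-7 alone gave -0.68 for Peg3, -0.03 for Impact (-0.45 with all NT-ESC) and -1.02 for the joint probe set, and in the family of Adeno-2 alone Peg3 was at -0.09 and the joint probe set at -0.12. Without the family of Adeno-2, Impact passed, at -1.20 (adjusted p = 0.0382 by limma), where 20.6% of genes did, and the joint probe set was at -1.84 (adjusted p = 0.0161 by limma). Against ESC, none of the 8 passed either, where 0.00847% of genes did, with Impact at -0.74 (SE 0.30, adjusted p = 0.275 by limma) the only one of 2074 genes at an unadjusted p under 0.05 from among the 8. With the NT-ESC of Adeno-2 only, Peg3 was 1.35 above ESC (adjusted p = 0.00653 by limma), Usp29 0.49 (adjusted p = 0.0343 by limma) and the joint probe set 2.66 (adjusted p = 0.00012 by limma), where 3.96% of genes passed. At Usp29's other probe set NT-4, NT-5 and NT-6 read -3.21, -3.59 and -3.14 against a mean of -2.97 in ESC, the opposite direction. Impact was at -0.22 in that fit (adjusted p = 0.307 by limma).

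In Adeno-2 and its subclones, 4 of 32 readings were more than 1 log2 unit above the ESC range, where 0.288% of all readings were, and all 4 were Peg3. None was as far below, where 0.199% were. At Peg3's other probe set only NT-4 was as far above. In NT-7, NT-8 and NT-9, 4 of 24 readings were as far below, where 10.4% of all readings were, and 2 were as far above, where 9.87% were, so that the background of these arrays was itself high. The readings below were Peg3 in NT-7 and NT-8 and Impact in NT-7 and NT-9, and those above were Sgce in NT-8 and NT-9.

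As a description over 52 ESC and iPSC arrays, the deviations of Peg3 and Usp29 from their group means correlated with Pearson's r = 0.21 (Spearman's rho = 0.18), and over the arrays without removing group means with r = 0.54. Peg3 and the probe set for Copg2 and Mest together gave 0.19 within groups and 0.72 without removing group means, as both were high in the mice. The largest value within groups was that of Zim1 and the probe set for Copg2 and Mest together, at 0.47 (rho = 0.40), where Zim1 itself is near the bottom of the signal range. Sgce and Grb10 gave -0.38, Slc38a4 and Impact -0.35, and Plagl1 and Impact 0.35. The genes most like each of the 8 in their deviations were Ank3 (0.67), Mif (0.65) and Brwd3 (0.64) for Peg3. For Usp29 they were Ubn1 (0.62), Bace1 (0.59) and Gatad2a (0.59), and for Zim1 Msln (0.61), Aimp1 (0.60) and Cd83 (0.56). For Sgce they were Slc6a13 (0.71), Gramd3 (0.69) and Cd47 (0.68), and for Plagl1 Cdh2 (0.70), Axin2 (0.69) and Dusp14 (0.68). For Grb10 they were Pilrb1 (0.56), Pcdhb19 (0.56) and Vmn1r25 (0.52), the weakest of these values. For Slc38a4 they were Hat1 (0.78), Sesn1 (0.77) and Leprot (0.76), and for Impact Abracl (0.83), Zfp275 (0.76) and Csn3 (0.76). Arrays share clones of 1 animal, culture and feeder content, so these values carry no test.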

How the data were processed

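RNA of 59 mouse lines was measured, 1 array per line, labelled with a GeneChip in vitro transcription kit per the labels' protocols. The authors deposited 1 value for each of 22626 probe sets, taken here as a log2 intensity from its range (-4.83 to 6.97) and array means near 0. How they corrected background, summarised probes or scanned is not given in the sources used here. By the platform annotation, 18003 probe sets name 1 gene, 287 several and 4336 none. Symbols come from RefSeq (GRCm38.p6). Each of 11807 genes was read from its probe set with the highest mean.

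The genes, lists and tests were chosen with earlier results of these data known. Every comparison was fitted on the whole table with limma 3.58.1 in R 4.3.3 (lmFit, eBayes, 2-sided, Benjamini-Hochberg, threshold 0.05), and every p-value of a gene is from limma. The fits were checked on simulated data. The ESC range is the lowest to the highest of 4 clones, with a margin of 1 log2 unit. All members are named whatever their p, with the 3 genes most like each and up to 4 called genes of each list. The number of arrays limits the precision. The same replicate numbers in ESC and MEF-derived clones do not pair them: the correlations of their deviations were 0.06, 0.12, 0.35 and 0.31. Alternatives chosen after seeing the data were the Adeno-2 family alone, contrasts between pairs of animals and every probe set on its own.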

Additional observations from a re-analysis of the deposited data

Results flagged for a closer look

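Each of the 8 genes and the joint probe set was checked in each group of 4 to 10 lines. Of these 63 checks, 6 found a line far from the rest of its group, and chance flags about 1 in 20. The same lines enter the checks of every gene. Zim1 read -3.76 in iPSC-48 against -3.51 to -3.36 in the other TTF-derived clones. Grb10 read 4.62 in iPSC-9 against 4.80 to 4.83 in the other HSC-derived clones of mouse 1, and 4.66 in iPSC-26 against 4.81 to 4.84 in the other GMP-derived clones of mouse 2. Slc38a4 read 3.82 in iPSC-5 against 4.32 to 4.42 in the other MEF-derived clones, and 4.40 in iPSC-23 against 4.32 to 4.33 in the other HSC-derived clones of mouse 2. Impact read 4.17 in ESC-1 against 3.86 to 3.89 in the other ESC. The difference of blood and fibroblast origin in Plagl1 varied between animals by 0.60 (adjusted p = 0.0197 by limma), from -0.18 in mouse 1, with PFs, to -0.78 in chimera 2, with TTFs.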

How the results depend on the processing

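Of the single-gene values under an alternative, 1856 kept their direction and side of the threshold, 25 passed newly, 30 no longer passed and 28 reversed. The counts of members called moved as follows. With 1 fit over all groups, 1 member passed between MEF-derived clones and ESC and 3 between all iPSC and ESC. With the feeder covariate, 2 passed between blood and fibroblast origin, where 1752 of 11807 genes did. Between cell types 0 passed, where 699 genes did, and 0 between animals in the size of the blood difference, where 1524 genes did. Within mouse 1, 0 passed, and within chimera 2, 2. Over cell types, 2 passed without mouse 1, where 4035 of 11807 genes did, and 2 without mouse 2, where 3113 genes did. Against donors, 1 passed without the family of Adeno-2 and 2 in that family only, and NT-ESC from Adeno-2 only gave 2 against ESC. For the blood difference by animal, 2 passed without genes under the 40th percentile, where 2216 of the genes kept did. With the mean of probe sets 2 passed, where 2372 genes did. Both times these were Peg3 and Plagl1. Readings below the ESC range numbered 23 at a margin of 0.5, 120 at any distance, 2 with the mean of probe sets and 0 where every probe set had to be outside. Those above numbered 19, 115, 1 and 1, and 4 after quantile normalization. The share over all genes was counted only at a margin of 1 log2 unit and at any distance, as given above. Leaving out 1 ESC gave 4 to 11 readings below, the 11 without ESC-1.

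Reversed values were small or from NT-ESC, and the cause was not tested. With the mean of probe sets, MEF-derived clones minus ESC gave -0.01 for Usp29 and -0.04 for Grb10. For all iPSC minus ESC, Slc38a4 was 0.02 with the covariate and Sgce -0.03 without MEF-derived clones. For blood minus fibroblast, without chimera 2 Sgce was -0.03 and Grb10 0.02, and within mouse 2 Usp29 was 0.01, Sgce -0.12, Grb10 0.14 and the probe set for Copg2 and Mest together -0.04. For NT-ESC minus donor, Zim1 was -0.01 after quantile normalization, Usp29 0.39 with the mean of probe sets, Grb10 0.01 without the family of iPSC-7, and Usp29 0.12 and Sgce -0.27 without that of iPSC-15. In the family of Adeno-2 only, Usp29 was 0.25, Sgce -0.25, Plagl1 -0.25 and Impact 0.70. For NT-ESC minus ESC, Usp29 was -0.03 after quantile normalization, Peg3 -0.18 with the mean of probe sets and Slc38a4 0.21 from Adeno-2 only. Leaving out 1 array gave ranges across 0 for Usp29 (-0.03 to 0.10) and Plagl1 (-0.02 to 0.14) in MEF-derived clones, Sgce (-0.04 to 0.08) in all iPSC, Grb10 (-0.11 to 0.01) against donors and Peg3 (-0.06 to 0.65) in NT-ESC minus ESC.

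With the clone number as a replicate block, 0 members and 15 genes passed between MEF-derived clones and ESC, against 0 genes without it. The numbers are not given as pairs, and only ESC-3 correlated best with the clone of its own number. The NT-ESC comparisons rest on 6 lines of 3 donors, and the 4 ESC set the width of the range.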
